A study of Mus musculus with 8 samples.

Results

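Cycling blood endothelial cells of a mouse melanoma were cells of the blood endothelial (BEC) sort in which 10 mitosis genes together made up at least 15 of every 10000 UMIs. These genes were Mki67, Top2a, Ccnb1, Ccnb2, Cdk1, Birc5, Cenpf, Cenpa, Ube2c and Tpx2. Cells with 20 or more UMIs of the pigment genes Dct, Tyrp1, Pmel and Tyr, or of the stromal genes Col3a1 and Rgs5, were left out. The rule found 187 cycling cells among 3170 kept BEC cells, 5.90% (5.10 to 6.78%), out of 7635 cells in the whole series. They were set against 2441 comparison cells of the same sort with under 2 per 10000, and 542 intermediate cells lay between. The members just inside the threshold had 15.1, 15.3 and 15.6 per 10000, and the cells just outside it had 14.8, 14.5 and 14.5.

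Both groups came from the same animals and the same sort. Pieces of MT-ret melanoma had grown on the ventral side of 10 mice of the strain C57BL/6N, and 10000 blood vascular endothelial cells were isolated by flow cytometry for droplet sequencing, with 10000 lymphatic endothelial (LEC) cells sorted beside them. The BEC cells used here fell into 187 cycling and 2441 comparison cells, and no treatment, genotype or time separated them. Age, the sorting antibodies and the animal of each cell were not given in the sources used here. The titles list 4 libraries per sort, but cell names carry the sort alone, so the sort was 1 sample without a replicate check. Levels are UMIs summed over the cells of a group, scaled to the total UMIs of the group (CPM). All intervals in brackets after a level, ratio or share span 95% and reflect counting error alone. The cells were chosen by these same counts, so every difference between cycling and comparison cells is a description without a test.

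A dividing cell copies its DNA in S phase, prepares for division in G2 and separates its chromosomes in mitosis. Cyclins bind and activate cyclin-dependent kinases, E2F factors switch on genes of DNA replication, and B-MYB and FOXM1 drive genes of G2 and mitosis. Endothelial cells of resting vessels seldom divide. In a sprouting vessel, tip cells lead and are marked by genes such as Esm1, Angpt2, Apln and Dll4, while stalk cells behind them are known to divide more.

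Cycling cells were deeper than comparison cells, with a median of 26972 UMIs (7577 to 99171) against 19287 UMIs (6968 to 86869), and with a median of 3482 genes against 2822 genes. After every cell was thinned to 5000 UMIs the medians were 1887 genes in cycling cells and 1747 genes in comparison cells. Mitochondrial UMIs made up a median of 3.06% in cycling cells and 3.44% in comparison cells. Doublets were not called, so cycling cells that are pairs of cells cannot be told apart by their depth. Of the barcodes, 34 occurred in both sorts, among them those of 4 cycling and 23 comparison cells. Without such cells 573 genes were at least 2-fold higher and 306 at least 2-fold lower, against 571 and 309 with them.

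The label held against markers. Pecam1, the endothelial adhesion molecule, was at 835 CPM in cycling cells and 1006 CPM in comparison cells. The other pan-endothelial genes Cdh5, Tie1 and Kdr were at 475, 136 and 323 CPM in cycling cells and at 662, 204 and 415 CPM in comparison cells. Plvap, a protein of the diaphragms of fenestrated endothelium, was at 4111 CPM in cycling cells and 5055 CPM in comparison cells. Markers of other cell types were present at low levels, some as high as Tie1 when summed over a list. The 11 melanocytic markers summed to 29.6 CPM in cycling cells and 33.8 CPM in comparison cells, with Mlana at 0 UMIs in cycling cells. The 7 lymphatic markers summed to 124 CPM in cycling cells and 141 CPM in comparison cells, most of it from Ccl21a with 431 UMIs and Flt4, which blood endothelium also makes, with 215 UMIs in cycling cells. Prox1, the defining lymphatic factor, had 6 UMIs and Reln 0 UMIs there. The median cell held 0 of this list in both groups, and the highest held 196 per 10000 UMIs among cycling cells and 483 among comparison cells. Without cells of 20 or more such UMIs, 186 cycling cells were left, and 572 genes were higher and 303 lower. The 8 fibroblast markers summed to 0.860 CPM in cycling cells and 9.51 CPM in comparison cells. The 9 macrophage markers summed to 2.41 CPM in cycling cells and 5.13 CPM in comparison cells, and the 5 leukocyte markers to 7.91 CPM in cycling cells and 7.59 CPM in comparison cells, mostly from Coro1a, with Ptprc, the pan-leukocyte antigen, at 0 UMIs in cycling cells and 5 UMIs in comparison cells. The 7 T and NK cell markers summed to 0.344 CPM in cycling cells and 0.960 CPM in comparison cells, and the 9 erythroid and platelet markers to 24.9 CPM in cycling cells and 37.7 CPM in comparison cells. The 11 mural markers summed to 87.6 CPM in cycling cells and 264 CPM in comparison cells, with Pdgfrb at 0 UMIs in cycling cells. The part that any of these cells play in the differences below was not tested.

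The genes of the rule spanned DNA topology, mitotic kinases and the kinetochore, and their levels only describe the selection. Top2a, the topoisomerase that untangles replicated DNA (chr11:98992943-99024189, minus strand, GRCm38), was at 366 CPM (350.2 to 381) in cycling cells and 2.23 CPM (1.84 to 2.67) in comparison cells. Single cells had a median of 3.08 per 10000 UMIs in cycling cells (range 0 to 24.7) and 0 in comparison cells (range 0 to 1.85), so some cycling cells held no Top2a UMI. Mki67, the proliferation antigen that coats mitotic chromosomes (chr7:135689784-135716361, minus strand), was at 124 CPM in cycling cells and 0.730 CPM in comparison cells. Cdk1, the kinase that drives entry into mitosis (chr10:69335146-69352938, minus strand), was at 712 CPM in cycling cells and 24.2 CPM in comparison cells. Its ratio of 29.4 was the smallest of the 10. In comparison cells of the LEC sort Cdk1 was at 2.26 CPM. Ccnb1 and Ccnb2, the B-type cyclins that activate Cdk1, were 247- and 120.0-fold higher. Ube2c, the ubiquitin-conjugating enzyme of the anaphase-promoting complex, was at 714 CPM in cycling cells and 4.24 CPM in comparison cells. Birc5 and Cenpa, the survivin subunit of the chromosomal passenger complex and the centromeric histone, were 155- and 95.2-fold higher. Cenpf and Tpx2, proteins of the kinetochore and of spindle assembly, were 248- and 89.9-fold higher. When members were chosen by the other 9 genes, the left-out gene was between 16.7-fold (15.9 to 17.6, Cdk1) and 180-fold (145 to 227, Ccnb1) higher in cycling cells.

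Promoters of genes of the rule are shown because these genes move together by selection and many carry the elements described for G2 and mitosis genes. Sequences are the bases just before the RefSeq transcription start (GRCm38.p6), 5′ to 3′ on the strand of the gene. Capitals mark CCAAT boxes (CCAAT or its reverse complement ATTGG), which bind NF-Y, and cell cycle homology elements (TTTGAA, its reverse complement TTCAAA, or TTCGAA), which bind MuvB complexes. In the Cdk1 sequence they also mark the E2F-type element TTTCGCGC.
Ccnb2 (chr9:70421555-70421654, minus strand): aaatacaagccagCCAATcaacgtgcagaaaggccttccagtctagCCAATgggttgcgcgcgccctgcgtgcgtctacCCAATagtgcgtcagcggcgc
Cdk1 (chr10:69352913-69353052, minus strand): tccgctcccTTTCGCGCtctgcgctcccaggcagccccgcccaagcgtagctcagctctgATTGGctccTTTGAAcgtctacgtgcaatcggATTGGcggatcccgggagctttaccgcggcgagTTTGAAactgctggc
Ube2c (chr2:164769829-164769928, plus strand): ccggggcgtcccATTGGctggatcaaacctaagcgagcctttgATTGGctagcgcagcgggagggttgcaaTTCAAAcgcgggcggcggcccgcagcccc
Top2a (chr11:99024190-99024349, minus strand): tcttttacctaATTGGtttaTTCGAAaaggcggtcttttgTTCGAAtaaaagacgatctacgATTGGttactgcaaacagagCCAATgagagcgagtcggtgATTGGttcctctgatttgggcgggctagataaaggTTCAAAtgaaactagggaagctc

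Ccnb2 held 3 CCAAT boxes at positions -87, -54 and -21 from the start, all in the orientation of the gene. The Cdk1 and Ube2c stretches shown each held 2 in the opposite orientation, at -80 and -48 and at -88 and -57. The Top2a stretch shown held 4 CCAAT boxes and 3 elements of the cell cycle homology type. A CCAAT box on either strand within 250 bases before the start was found in 8 of 9 promoters of genes of the rule. It was found in 36 of 46 promoters (78.3%) of the list of other G2 and mitosis genes, in 31 of 53 (58.5%) of the replication lists, and in 33.8% of all 32851 promoters. TTTGAA or TTCGAA was found in 5 of 9, in 18 of 46 (39.1%), in 11 of 53 (20.8%) and in 17.1% of the same sets. TTTCGCGC was found in 1 of 9, 0 of 46, 6 of 53 (11.3%) and 0.256%. A pair of CCAAT boxes on the same strand 29 to 35 bases apart was a pattern chosen after the sequences had been seen. It occurred in 4 of 9 promoters (Ccnb1, Ccnb2, Cdk1 and Ube2c), in 4 of 46 (8.70%, 2.42 to 20.8%), in 3 of 53 (5.66%, 1.18 to 15.7%) and in 1.22% of all. Tpx2 had no entry in the promoter table. The table held 41 of 52 genes of the G2 and mitosis list and 43 of 52 of the replication lists, some with more than 1 promoter.

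Across the transcriptome, 571 of 7759 measured genes (10 CPM or more in either group) were at least 2-fold higher in cycling cells (7.36%) and 309 were at least 2-fold lower (3.98%). The median log2 ratio over all of them was -0.028, and 52.3% were below 0. These shares of all genes are the background for every count of list members below. A gene could reach 10 CPM through the cycling or the comparison cells alone, which adds to the counts of genes 2-fold apart. Outside the 10 genes of the rule, 184 of 224 measured genes in 11 cell cycle lists were at least 2-fold higher and 1 was lower. The split of higher against lower genes was 64.9% higher, with 71.1% when totals left out the cell cycle genes and 55.3% in cells thinned to 5000 UMIs (681 higher and 550 lower).

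**Figure D1:**
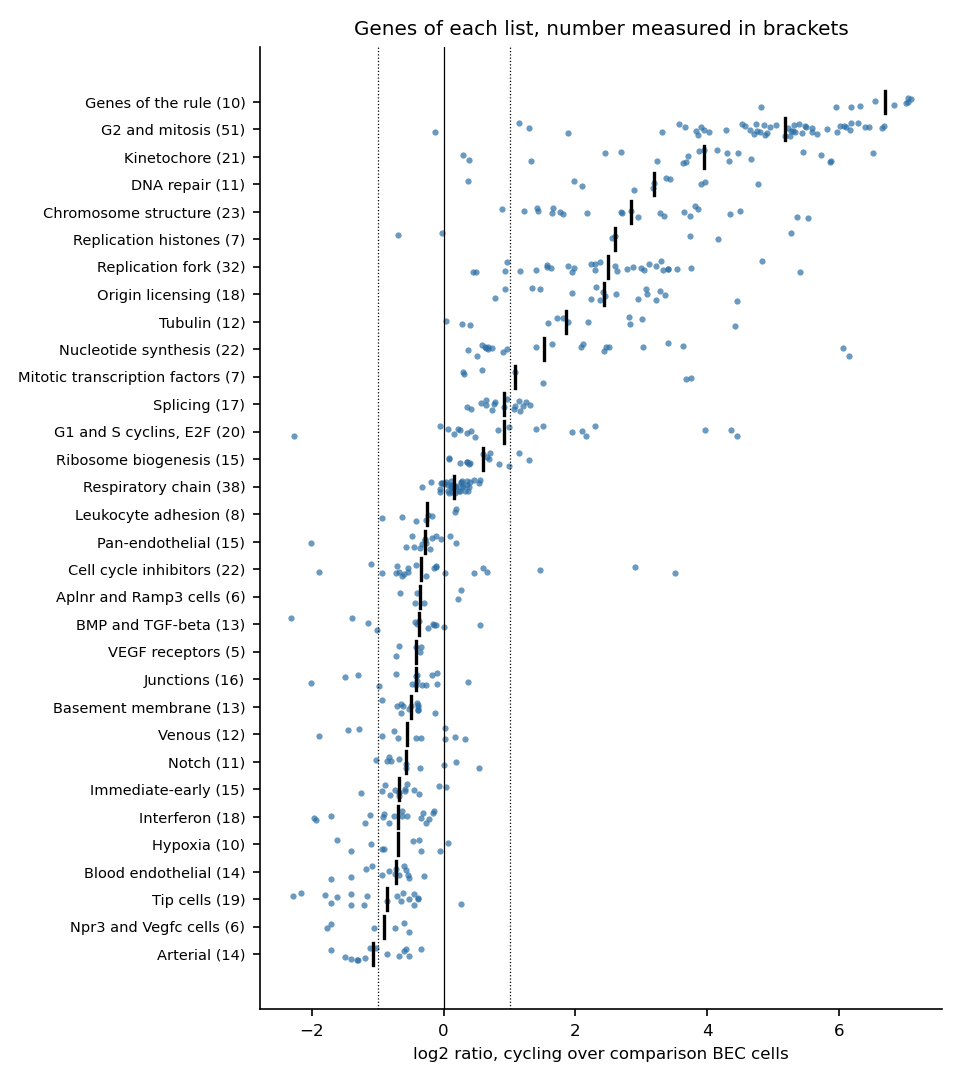
Log2 ratio of cycling over comparison BEC cells for each measured gene (points) of 32 gene lists, with the list median as a black bar and dotted lines at 2-fold. Mitosis lists lie at medians of 3.95 to 6.69, replication lists near 2.44, and the arterial, Npr3 and tip cell lists between -1.07 and -0.85. The cells were selected on mitosis genes, so the gap between mitosis and replication lists is not read as a result.

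G2 and mitosis genes outside the rule were higher in cycling cells in 50 of 51 measured cases, with a median log2 ratio of 5.18. Pbk, a mitotic kinase (chr14:65805837-65817822, plus strand), was at 337 CPM (322 to 352) in cycling cells and 2.29 CPM (1.89 to 2.73) in comparison cells, 147-fold higher (123 to 179). Single cells had a median of 2.46 per 10000 UMIs in cycling cells (range 0 to 21.5) and 0 in comparison cells (range 0 to 3.60). Hmmr, a hyaluronan receptor that also binds spindle microtubules, was at 162 CPM in cycling cells and 0.845 CPM in comparison cells, 191-fold higher (141 to 265). Ccna2, the cyclin of S phase and G2, was at 270.3 CPM in cycling cells and 1.71 CPM in comparison cells, 158-fold higher (128 to 198). Plk1, the kinase of centrosome maturation and mitotic exit, was at 213 CPM in cycling cells and 1.98 CPM in comparison cells. Cdc20, the activator of the anaphase-promoting complex, was at 424 CPM in cycling cells and 5.15 CPM in comparison cells. Cdca8, a subunit of the chromosomal passenger complex, was at 371 CPM in cycling cells and 4.94 CPM in comparison cells. Prc1, of the central spindle, and Cep55, of abscission, were 123- and 214-fold higher. Kif2c, a kinesin that depolymerises microtubules, was 397-fold higher (214 to 833), on a comparison level of 0.192 CPM. Fam64a and Cep55 were in no list and are named for the size of their ratios. Nusap1, Fam64a and Cdca3, proteins of the spindle, of the metaphase to anaphase transition and of mitotic entry, were 142-, 145- and 109-fold higher. The exception was Pttg1, which encodes securin, at 78.3 CPM in cycling cells and 85.8 CPM in comparison cells. Near-identical copies of Pttg1 were not looked for, so how its reads were assigned is uncertain.

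Kinetochore genes were at least 2-fold higher in 19 of 21 cases. The motor Cenpe (chr3:135212537-135273611, plus strand) was at 204 CPM in cycling cells and 1.25 CPM in comparison cells, 163-fold higher (127 to 213). Casc5, the scaffold on which the outer kinetochore assembles, was 311-fold higher (176 to 606). The microtubule-binding pair Nuf2 and Ndc80 were at 129 and 136 CPM in cycling cells, against 1.23 and 4.40 CPM in comparison cells. Cenpt and Zwint, a constitutive centromere protein and a kinetochore adaptor, were under 2-fold apart, at 99.3 and 87.1 CPM in cycling cells and 81.1 and 66.7 CPM in comparison cells.

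Genes that shape chromosomes and microtubules were higher from a larger baseline. Of 23 genes of condensin, cohesin and mitotic chromatin, 22 were at least 2-fold higher, with a median log2 ratio of 2.85. H2afz, the histone variant H2A.Z, was at 3485 CPM in cycling cells and 530.2 CPM in comparison cells, and single cells had a median of 34.0 per 10000 UMIs in cycling cells (range 0 to 76.7) and 4.55 in comparison cells (range 0 to 29.3). Hmgb2, a chromatin protein of dividing cells, was at 1298 CPM in cycling cells and 96.7 CPM in comparison cells. Smc2 and Smc4, the ATPases of condensin, were at 395 and 491 CPM in cycling cells and at 26.3 and 67.2 CPM in comparison cells. Smc1a, of cohesin, was at 247 CPM in cycling cells and 133 CPM in comparison cells. Stmn1, the microtubule-destabilising protein stathmin, was at 2095 CPM in cycling cells and 96.6 CPM in comparison cells, 21.7-fold higher (21.0 to 22.4). All 187 cycling cells held Stmn1, with a median of 20.1 per 10000 UMIs in cycling cells (range 2.36 to 63.4) and 0 in comparison cells (range 0 to 14.4). The tubulins Tubb5 and Tuba1b were 4.56- and 8.09-fold higher. The kinesin Kif5b, which carries cargo in all cells, was at 309.7 CPM in cycling cells and 301 CPM in comparison cells.

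DNA replication genes were higher as well, though by less. The cells were selected on mitosis genes, so the gap between the replication and the mitosis lists is not read as a result. Of 18 origin licensing and helicase genes 16 were at least 2-fold higher, with a median log2 ratio of 2.44, and of 32 replication fork genes 28 were, with a median of 2.49. Mcm5, of the replicative helicase, was at 114 CPM in cycling cells and 10.8 CPM in comparison cells. Cdc45, which activates that helicase, was at 60.4 CPM in cycling cells and 1.81 CPM in comparison cells. Pcna, the sliding clamp of DNA polymerase, was at 149 CPM in cycling cells and 27.9 CPM in comparison cells, and Asf1b, a histone chaperone, was at 137 CPM in cycling cells and 2.25 CPM in comparison cells. Of 11 measured DNA repair genes of S phase 10 were at least 2-fold higher.

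Nucleotide synthesis was higher in part. Of 22 measured genes 12 were at least 2-fold higher. Rrm2, the S-phase subunit of ribonucleotide reductase, was at 411 CPM in cycling cells and 4.80 CPM in comparison cells, 85.6-fold higher (75.1 to 97.9), and Tk1, thymidine kinase, was at 415 CPM in cycling cells and 5.20 CPM in comparison cells. Tyms, thymidylate synthase, and the folate enzyme Mthfd2 were 5.46- and 8.77-fold higher. Enzymes of purine synthesis such as Gart and Paics were under 2-fold higher, with Gart at 44.2 CPM in cycling cells and 28.3 CPM in comparison cells and Paics at 106 CPM in cycling cells and 56.3 CPM in comparison cells. Of 28 replication-dependent histone genes, whose mRNAs mostly lack the poly(A) tail that the 3′ kit captures, 7 reached 10 CPM and 5 of these were at least 2-fold higher. The linker histone Hist1h1b was at 22.2 CPM in cycling cells and 0.288 CPM in comparison cells. Hist1h2ap was at 49.2 and 0.307 CPM and Hist1h4i at 36.0 and 5.11 CPM in cycling and comparison cells. These 3 reached 10 CPM in cycling cells alone, so the filter adds to the count of higher histone genes, which is not read as a result. Hist1h2bc, the one of the 7 at 50 CPM or more in the higher group, was at 84.6 CPM in cycling cells and 137 CPM in comparison cells.

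RNA handling genes were higher by smaller ratios. All 17 splicing genes had a log2 ratio above 0, with a median of 0.92, and 7 were at least 2-fold higher. Srsf7 and Srsf3, splicing factors rich in serine and arginine, were at 381 and 586 CPM in cycling cells and 153 and 261 CPM in comparison cells. All 15 measured ribosome biogenesis genes were above 0, with a median of 0.60 and Nop56, a box C/D RNP protein, at 203 CPM in cycling cells and 82.4 CPM in comparison cells. Of 38 nuclear genes of the respiratory chain, 0 were 2-fold apart, and their median was 0.15.

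Cyclins and other regulators of G1 and S were mixed. Of 20 measured G1 and S regulators 9 were at least 2-fold higher and 1 was lower. Ccnd1, a D-type cyclin of G1, was at 328 CPM in cycling cells and 342 CPM in comparison cells. Ccnd2, another D-type cyclin, was at 5.16 CPM in cycling cells and 28.8 CPM in comparison cells, 5.57-fold lower (3.89 to 8.29). Ccne1, the E-type cyclin that starts S phase (chr7:38097984-38107534, minus strand), was at 54.0 CPM in cycling cells and 1.52 CPM in comparison cells, 35.6-fold higher (27.7 to 46.2). E2f1 and E2f8, an activator and a repressor of the E2F family, were 4.85- and 123-fold higher. E2f4, a repressor of resting cells, was at 101 CPM in cycling cells and 79.1 CPM in comparison cells. Foxm1 and Mybl2 (B-MYB) were both at 21.0 CPM in cycling cells, against 0.634 and 0.711 CPM in comparison cells.

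**Figure D2:**
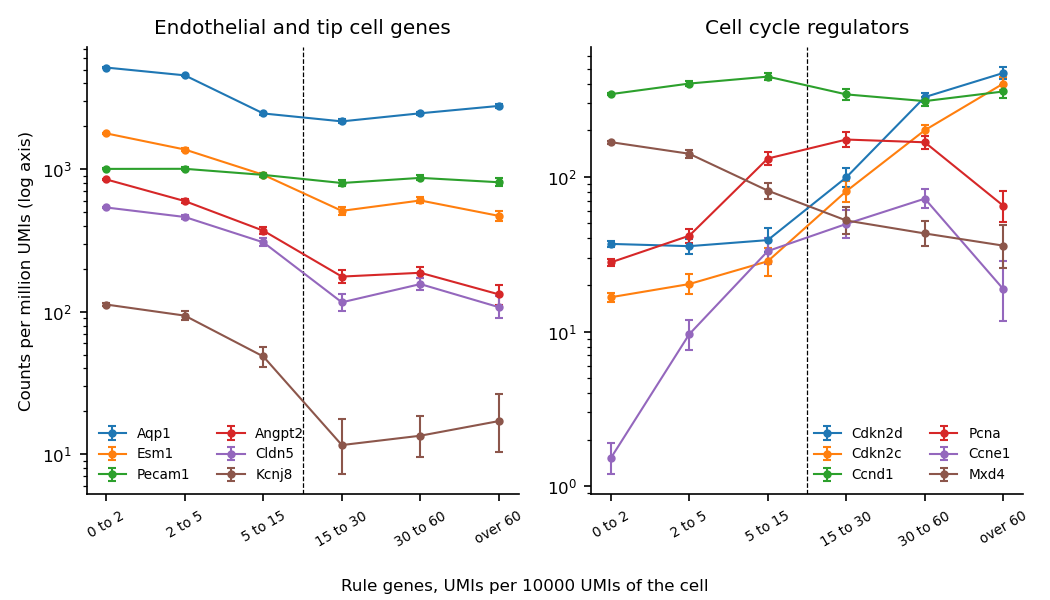
Summed level in CPM (log axis, points) with exact 95% counting intervals (bars) in 6 bins of BEC cells ordered by their UMIs from the genes of the rule per 10000, with the selection threshold of 15 as a dashed line. Angpt2, Esm1, Cldn5 and Kcnj8 fall off below the threshold, while Cdkn2c and Cdkn2d climb above it.

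Among 22 measured inhibitors and quiescence genes, 3 were at least 2-fold higher in cycling cells and 2 lower, beside 7.36% and 3.98% of all genes, so the counts single out nothing. The 3 were members of the INK4 family, inhibitors of the kinases Cdk4 and Cdk6. Cdkn2c (chr4:109660876-109667189, minus strand) was at 201 CPM (189.8 to 213) in cycling cells and 16.6 CPM (15.6 to 17.8) in comparison cells, 12.1-fold higher (11.1 to 13.2). Cdkn2d (chr9:21288410-21291407, minus strand) was at 281 CPM (267 to 295) in cycling cells and 36.8 CPM (35.2 to 38.5) in comparison cells, 7.63-fold higher (7.14 to 8.16). Cdkn2a was at 25.1 CPM in cycling cells and 8.47 CPM in comparison cells. Across the 6 bins of rule score in ascending order, Cdkn2d was at 36.8, 35.6, 38.9, 99.1, 327 and 468 CPM, so the comparison, 2 to 5 and 5 to 15 bins were alike and the selected bins were higher. Cdkn2c was at 16.6, 20.3, 28.4, 80.6, 199.7 and 399.8 CPM in the same bins. Cdkn1a, the p21 inhibitor, was at 315 CPM in cycling cells and 208 CPM in comparison cells, under 2-fold higher. Mxd4, which competes with MYC for its partner MAX (chr5:34173883-34187720, minus strand), was at 44.6 CPM in cycling cells and 167 CPM in comparison cells, 3.75-fold lower (3.32 to 4.26). Gadd45a, a stress gene, was at 15 CPM in cycling cells and 33.1 CPM in comparison cells. Cdkn1b, the p27 inhibitor, was at 13.4 CPM in cycling cells and 16.3 CPM in comparison cells.

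Pan-endothelial genes were mostly lower by small ratios, and blood endothelial, capillary, tip and arterial genes were lower by more. Over 7 lists of pan-endothelial, blood endothelial, tip, Npr3, Aplnr, venous and arterial genes, 77 genes were measured. Of these, 24 were at least 2-fold lower in cycling cells (31.2%, against 3.98% of all genes) and 0 were higher. Below 0 were 68 of 77, against 52.3% of all genes. The blood endothelial list had a median of -0.73, with 14 of 14 genes below 0 and 4 at least 2-fold lower. A further list of capillary genes had a median of -0.70, with 9 of 9 measured genes below 0 and 2 at least 2-fold lower. The pan-endothelial list had a median of -0.28, with 13 of 15 genes below 0 and 1 at least 2-fold lower. This gene was Cldn5, a tight junction claudin (chr16:18776847-18778262, plus strand), at 134 CPM (124 to 143) in cycling cells and 539 CPM (533 to 546) in comparison cells, 4.04-fold lower (3.76 to 4.34). Single cells had a median of 0.290 per 10000 UMIs in cycling cells (range 0 to 30.9) and 2.09 in comparison cells (range 0 to 100.1), so the ranges overlapped and the highest values were in comparison cells. Emcn, Eng and Egfl7 lay close together, at 1570.2, 1585 and 1575 CPM in cycling cells and 1817, 1724 and 1620.3 CPM in comparison cells. Aqp1, a water channel (chr6:55336432-55348555, plus strand), was at 2435 CPM in cycling cells and 5173 CPM in comparison cells, 2.12-fold lower (2.09 to 2.16). Over the 6 bins of rule score, low to high, it was at 5173, 4563, 2464, 2168, 2471 and 2784 CPM.

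Tip cell genes were lower in 18 of 19 cases, 9 of them at least 2-fold, with a median log2 ratio of -0.85. Over all measured genes 52.3% were below 0 and 3.98% were at least 2-fold lower. Angpt2, the ligand that destabilises vessels by blocking Tie2 (chr8:18690263-18741562, minus strand), was at 173 CPM (162 to 184) in cycling cells and 849 CPM (841 to 856) in comparison cells, 4.91-fold lower (4.61 to 5.23). Single cells had a median of 0.432 per 10000 UMIs in cycling cells (range 0 to 23.2) and 2.91 in comparison cells (range 0 to 98.2). Esm1, a proteoglycan of tip cells (chr13:113209659-113218098, plus strand), was at 547 CPM (528 to 566) in cycling cells and 1785 CPM (1774 to 1797) in comparison cells, 3.27-fold lower (3.15 to 3.39). Single cells had a median of 1.85 per 10000 UMIs in cycling cells (range 0 to 131) and 9.0 in comparison cells (range 0 to 223). The highest Esm1 cycling cell therefore stood far above the median comparison cell, and the groups overlapped widely. Igfbp3, a carrier of insulin-like growth factors, was at 2790.4 CPM in cycling cells and 6262 CPM in comparison cells. Adm, a vasodilator peptide, was at 52.1 CPM in cycling cells and 162 CPM in comparison cells. The Notch ligand Dll4 and the apelin peptide Apln were under 2-fold lower, at 145 and 183 CPM in cycling cells and 263 and 264 CPM in comparison cells. Plaur, the urokinase receptor, was the 1 gene above 0, at 145 CPM in cycling cells and 121 CPM in comparison cells. Pgf, placental growth factor, was 4.73-fold lower (3.78 to 5.98), but 1 cell held 22.8% of its UMIs in cycling cells.

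Shares of cells were compared at equal depth. After thinning to 5000 UMIs, 32.6% (26.0 to 39.8%) of cycling and 63.3% (61.3 to 65.2%) of comparison cells held an Angpt2 UMI, from median depths of 26972 and 19287 UMIs. Lymphatic cells of the other sort, with a median of 10452 UMIs, express Angpt2 themselves and held it in 35.5%. Esm1 was in 63.6% (56.3 to 70.5%) of cycling and 79.6% (77.9 to 81.1%) of comparison cells, against 3.66% of lymphatic cells. Apln was in 38.0% (31.0 to 45.3%) of cycling and 38.8% (36.8 to 40.7%) of comparison cells, against 1.13% of lymphatic cells, and its intervals overlapped. Aplnr, the apelin receptor, was in 60.4% (53 to 67.5%) of cycling and 51.6% (49.6 to 53.6%) of comparison cells, against 0.536% of lymphatic cells. Its CPM was 397 in cycling cells and 341 in comparison cells. Unthinned, Angpt2 was in 63.6% of cycling and 77.8% of comparison cells, Esm1 in 92.5% and 92.9%, Apln in 65.8% and 55.1%, and Aplnr in 83.4% and 68.1%.

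The lowest ratio of the genes named by size was that of Kcnj8, a pore subunit of the ATP-sensitive potassium channel (chr6:142564837-142571614, minus strand). It was at 13.6 CPM (10.8 to 16.9) in cycling cells and 112 CPM (109 to 115) in comparison cells, 8.27-fold lower (6.62 to 10.5). Its partner subunit Abcc9, encoded beside it (chr6:142587862-142702315, minus strand), was at 13.4 CPM in cycling cells and 48.9 CPM in comparison cells. Both genes are also markers of mural cells, and so is Tagln, at 15.5 CPM in cycling cells and 61.5 CPM in comparison cells. The defining mural gene Pdgfrb had 0 UMIs in cycling cells and 26 UMIs in comparison cells. Rgs5, capped by the filter, had 29 UMIs in cycling and 447 UMIs in comparison cells. These raw counts are not levels, since the totals were 5812506 UMIs in cycling and 52075362 UMIs in comparison cells. Of 4 measured mural markers, the 3 genes Kcnj8, Abcc9 and Tagln were at least 2-fold lower. The fourth, Acta2, smooth muscle actin, was at 38.2 CPM in cycling cells and 27.1 CPM in comparison cells. At 5000 UMIs Kcnj8 was in 5.88% (2.97 to 10.3%) of cycling and 23.8% (22.1 to 25.5%) of comparison cells. Lymphatic cells held it in 4.74% (4.04 to 5.51%), so the share in cycling cells was not above that background. Unthinned, it was in 20.3% of cycling and 36.1% of comparison cells.

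Other genes at the low end were a mixed set. Dkk2, a secreted Wnt regulator, was 3.51-fold lower (3.0 to 4.11). Thbs1, the angiogenesis inhibitor thrombospondin, was 3.31-fold lower (2.90 to 3.79). Tbxa2r, the thromboxane receptor, was 3.09-fold lower (2.60 to 3.70). Enpp2, the enzyme autotaxin, was 4.07-fold lower (3.34 to 5.02), with 20% of its UMIs in cycling cells from 1 cell. The carboxypeptidase Cpe, the tetraspanin Cd82, the chaperone Hspa2 and the membrane protein Sez6l2 were lower by 3.38- to 4.20-fold. Without the filter on pigment and stromal genes, the log2 ratio of Cpe was -0.91 in place of -1.87.

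Arterial genes were lower in 14 of 14 cases, 8 of them at least 2-fold, with a median of -1.07. The same shares over all genes were 52.3% and 3.98%. Against a depth-matched comparison the arterial median was -0.71. Gja4 and Gja5, connexins of arterial endothelium, were at 105 and 7.74 CPM in cycling cells and 259.8 and 23.7 CPM in comparison cells. Efnb2, the arterial ephrin ligand, was at 34.4 CPM in cycling cells and 79.6 CPM in comparison cells, and Cxcl12, a chemokine, was at 47.1 CPM in cycling cells and 119 CPM in comparison cells. Hey1, a target of Notch, was at 76.2 CPM in cycling cells and 157 CPM in comparison cells. Genes of the cells marked by Npr3 and Vegfc, which included Esm1, had a median of -0.90, and Vegfc, a growth factor for lymphatic vessels, was at 62.1 CPM in cycling cells and 130.3 CPM in comparison cells. At 5000 UMIs, 72.2% (65.2 to 78.5%) of cycling and 85.3% (83.8 to 86.7%) of comparison cells held 2 UMIs of this list, against 3.25% of lymphatic cells. Shares over the tip, Aplnr, arterial and venous lists were not read, since 70.9% or more of lymphatic cells also met that count.

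Venous genes did not share a direction across settings. The list median was -0.55, and 0.31 against a depth-matched comparison. Ackr1, the chemokine receptor of venules, was 3.76-fold lower (3.29 to 4.31), but 1 cell held 26.2% of its UMIs in cycling cells and its log2 ratio was -0.87 against the depth-matched cells, in place of -1.88. Vwf, von Willebrand factor, was at 31.3 CPM in cycling cells and 87.5 CPM in comparison cells. Nr2f2, the transcription factor of venous identity, was at 30.6 CPM in cycling cells and 30.2 CPM in comparison cells. Genes of the cells marked by Aplnr and Ramp3 had a median of -0.35 and 0 of 6 genes 2-fold apart. Ramp3, a receptor partner for adrenomedullin, was at 203 CPM in cycling cells and 323 CPM in comparison cells, and Fabp5, a fatty acid binding protein, was at 535 CPM in cycling cells and 445 CPM in comparison cells.

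VEGF receptor and basement membrane genes were lower by small ratios, while some BMP and TGF-β genes and junction genes were at least 2-fold lower. Beside the counts here, 52.3% of all measured genes were below 0 and 3.98% were at least 2-fold lower. All 5 VEGF receptor genes were below 0, with a median of -0.41. Kdr, the main signalling receptor, was at 323 CPM in cycling cells and 415 CPM in comparison cells, Flt1, which also acts as a decoy, at 779 CPM in cycling cells and 1248 CPM in comparison cells, and the co-receptor Nrp1 at 346 CPM in cycling cells and 572 CPM in comparison cells. Of 13 basement membrane genes 13 were below 0 and 0 were 2-fold apart, with Col4a1, a chain of collagen IV, at 621 CPM in cycling cells and 874 CPM in comparison cells. Of 11 Notch pathway genes 1 was at least 2-fold lower, too few to read as a result about the pathway. Of 13 genes of BMP and TGF-β signalling 4 were at least 2-fold lower. Among them, Bmp4, a ligand, was at 4.13 CPM in cycling cells and 24.5 CPM in comparison cells. Smad1, a transducer, was at 56.4 CPM in cycling cells and 127 CPM in comparison cells. The target genes Id1 and Id3 were at 544 and 1085 CPM in cycling cells and at 604 and 1077 CPM in comparison cells. Of 16 junction genes 3 were at least 2-fold lower, namely Cldn5, Gja4 and Gja5. Leukocyte adhesion genes had 0 of 8 genes 2-fold apart and a median of -0.26, which was 0.034 against depth-matched cells.

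Genes of interferon, hypoxia and immediate-early responses came next, beside shares over all genes of 52.3% below 0 and 3.98% at least 2-fold lower. Of 18 interferon response genes 18 were below 0 and 5 at least 2-fold lower, with Ifit1, an RNA-binding antiviral protein, at 6.02 CPM in cycling cells and 26.5 CPM in comparison cells and Isg15, a ubiquitin-like modifier, at 126 CPM in cycling cells and 239 CPM in comparison cells. Of 10 hypoxia genes 3 were at least 2-fold lower, namely Adm, the mitophagy gene Bnip3 at 7.05 CPM in cycling cells and 20.4 CPM in comparison cells, and Ankrd37 at 31.5 CPM in cycling cells and 68.3 CPM in comparison cells. Of 15 immediate-early genes, which also respond to tissue dissociation, 14 were below 0 and Egr1, a zinc finger factor, was 2-fold apart, at 72.1 CPM in cycling cells and 174 CPM in comparison cells. Fos, a subunit of AP-1, was at 824 CPM in cycling cells and 1449 CPM in comparison cells.

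By rule score, several endothelial genes were already lower below the threshold and others were not. In bins of 0 to 2, 2 to 5, 5 to 15, 15 to 30, 30 to 60 and over 60 per 10000, of 2441, 411, 131, 64, 84 and 39 cells, Angpt2 was at 849, 598, 371, 176, 188 and 132 CPM. Esm1 was at 1785, 1376, 915, 511, 604 and 471 CPM, Cldn5 at 539, 462, 307, 116, 156 and 108 CPM and Kcnj8 at 112, 93.9, 48.5, 11.6, 13.5 and 17.1 CPM. The 131 cells at 5 to 15, which the rule did not select, lay between the comparison and the cycling cells in these 4 genes, which were shown for that reason after their values were seen. Apln, at 264, 254, 259.6, 191, 197 and 138 CPM, was level up to the threshold and lower above it. Ackr1 was at 146, 68.5, 111, 21.1, 50.7 and 39.3 CPM and Pgf at 64.2, 41.2, 8.35, 29.5, 5.83 and 5.98 CPM, without an even order. Pecam1 varied less, at 1006, 1007, 913, 801, 870.0 and 811 CPM. Aplnr was highest in the middle bins, at 341, 452, 501, 460.5, 412 and 261 CPM. Median depth over the bins was 19287, 17530, 19363, 21304, 30195.5 and 29232 UMIs.

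Replication and mitosis genes were then set side by side within the cycling cells. The cells were selected for mitosis genes, and across them the G2 and mitosis list followed the rule score (r = 0.87, rho = 0.89) while the replication lists did not (r = -0.086, rho = 0.042), so the spread of mitosis genes is set by the selection and is not compared. Per 10000 UMIs, the licensing and fork lists together had a median of 34.3 in cycling cells (3.89 to 131.7, quartiles 14.8 and 69.4) and 7.98 in comparison cells (0 to 71.5). The G2 and mitosis list outside the rule had a median of 77.9 in cycling cells (7.97 to 195.2, quartiles 48.0 and 106) and 6.42 in comparison cells (0 to 24.7). Above the 95th percentile of comparison cells in replication genes were 121 of 187 cycling cells (64.7%, 57.4 to 71.5%). In mitosis genes 184 were above it, which the rule largely fixes, so 0 cells above it in replication genes alone is a property of the selection. Among the 542 intermediate cells, 124 (22.9%) were above it in replication genes, 54 of them without mitosis genes above it. Across the 187 cycling cells the measures had r = 0.017 and rho = 0.11, which is a description over cells of 1 sample that share their depth.

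**Figure D3:**
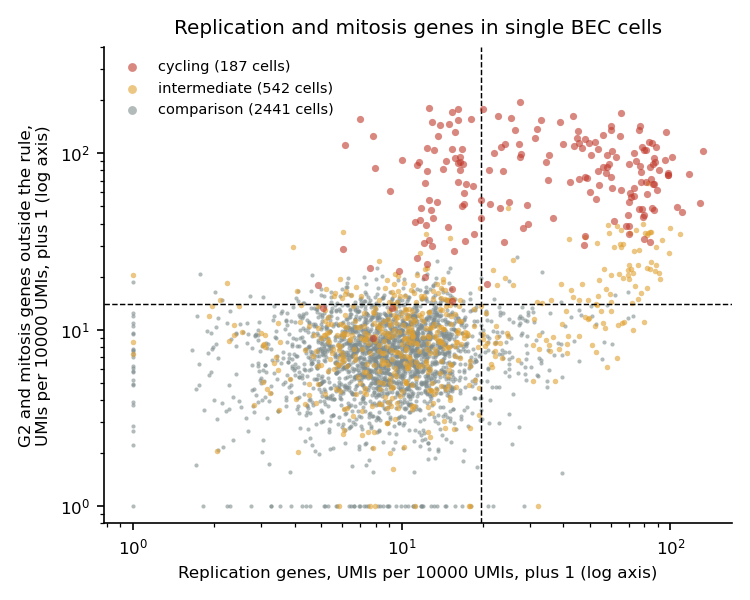
UMIs of the replication lists (x axis) against the G2 and mitosis list outside the rule (y axis), each per 10000 UMIs of the cell plus 1 on log axes, for 187 cycling, 542 intermediate and 2441 comparison cells, with dashed lines at the 95th percentile of comparison cells. Cycling cells lie along the top, as the selection on mitosis genes sets, 121 of them in the upper right, and intermediate cells reach into the lower right.

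To see what went with replication, cycling cells were ordered by the ratio of the replication to the mitosis lists and split into 3 groups of like size, of which 63 S-weighted cells are set against 62 mitosis-weighted cells. This split was made after the data had been seen, it uses a range rather than types, and 28 and 21 cells lay within 0.25 log2 units of its cuts. The E-type cyclins, in neither list, separated the ends. Ccne1 was at 112 CPM in S-weighted and 3.13 CPM in mitosis-weighted cells, 35.9-fold higher (16.3 to 98.9), and Ccne2 at 85.2 CPM in S-weighted and 2.61 CPM in mitosis-weighted cells, 32.7-fold higher (13.8 to 102). E2f8 was at 47.0 CPM in S-weighted and 3.13 CPM in mitosis-weighted cells. E2f1, the activator, was at 93.5 CPM in S-weighted and 9.38 CPM in mitosis-weighted cells, 9.96-fold higher (6.14 to 17.2). The D-type cyclin Ccnd3 was at 351 CPM in S-weighted and 179 CPM in mitosis-weighted cells, while Ccnd1 was at 309 CPM in S-weighted and 349 CPM in mitosis-weighted cells. Of the nucleotide genes, Dut, which breaks down dUTP, was at 379.6 CPM in S-weighted and 54.2 CPM in mitosis-weighted cells. Hist1h2ap, a replication-dependent histone gene, was at 78.9 CPM in S-weighted and 10.4 CPM in mitosis-weighted cells. Cdkn1a was at 422 CPM in S-weighted and 209 CPM in mitosis-weighted cells, 2.02-fold higher (1.79 to 2.28).

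Genes of the replication and mitosis lists differ between the ends by the split itself, such as Cdc20 at 136 CPM in S-weighted and 821 CPM in mitosis-weighted cells. Ccnb1, a gene of the rule and in neither list, was at 116 CPM in S-weighted and 517 CPM in mitosis-weighted cells. Cenpe, in neither list, was at 102 CPM in S-weighted and 326 CPM in mitosis-weighted cells, 3.19-fold lower (2.73 to 3.75) in S-weighted cells. Cdkn1b, at 5.33 CPM in S-weighted and 19.8 CPM in mitosis-weighted cells, was 3.72-fold lower (1.86 to 8.07) in S-weighted cells, and Ccng2, an atypical cyclin of resting cells, was at 18.9 CPM in S-weighted and 44.3 CPM in mitosis-weighted cells. Mki67 was at 133 CPM in S-weighted and 118 CPM in mitosis-weighted cells, and Cdkn2d at 274 CPM in S-weighted and 284 CPM in mitosis-weighted cells, with overlapping intervals. Endothelial genes were similar at both ends in part. Pecam1 was at 832 CPM in S-weighted and 843 CPM in mitosis-weighted cells, Cldn5 at 139 CPM in S-weighted and 123 CPM in mitosis-weighted cells and Kcnj8 at 13.6 CPM in S-weighted and 16.2 CPM in mitosis-weighted cells. Esm1 was at 309 CPM in S-weighted and 658 CPM in mitosis-weighted cells, 2.13-fold lower (1.93 to 2.34) in S-weighted cells, and Angpt2 at 110.4 CPM in S-weighted and 191 CPM in mitosis-weighted cells, 1.73-fold lower (1.46 to 2.05) likewise. Both ends were below the 2441 comparison cells, which were at 1785 CPM for Esm1 and 849 CPM for Angpt2. Median depth was 30787 UMIs in S-weighted and 27560.5 UMIs in mitosis-weighted cells.

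**Figure D4:**
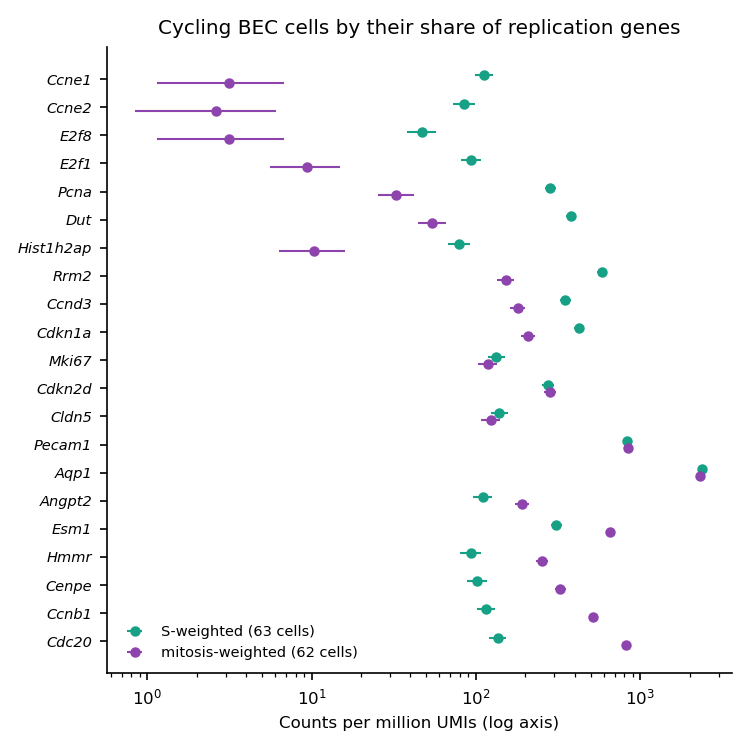
Summed level in CPM (log axis, points) with exact 95% counting intervals (bars) of 21 genes in 63 S-weighted and 62 mitosis-weighted cycling BEC cells. Ccne1 and Ccne2 lie furthest apart, Pecam1, Aqp1 and Cdkn2d nearly coincide, and Ccnb1 and Cenpe are higher in mitosis-weighted cells. Pcna, Hmmr and Cdc20 are in the lists that made the split.

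The same rule was applied to the LEC sort to see which differences were shared. It found 151 of 4119 kept LEC cells (3.67%, 3.11 to 4.29%), against 5.90% in the BEC sort. Median depth was 17505 UMIs in cycling and 10479.5 UMIs in comparison LEC cells. Of these cells, 140 of 151 cycling and 3357 of 3504 comparison cells held 20 or more UMIs of the lymphatic markers, and the others were kept. The lymphatic markers summed to 18197 CPM in cycling and 29338 CPM in comparison cells of the LEC sort. Among 8227 measured genes, 580 were at least 2-fold higher in cycling LEC cells (7.05%) and 435 lower (5.29%). Higher in both sorts were 427 genes, 74.8% of the BEC list and 73.6% of the LEC list. Lower in both were 70 genes, 22.7% of the BEC list and 16.1% of the LEC list. Across 7230 genes measured in both, the log2 ratios had r = 0.89 and rho = 0.68, and across 7000 genes outside the cell cycle lists r = 0.80 and rho = 0.65. The 10 genes of the rule are among the 427 and the 7230. Both sorts were selected on them, so the selection sets a part of what is shared. Some of these 7000 are cell cycle genes that the lists lack, and genes are not independent replicates.

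**Figure D5:**
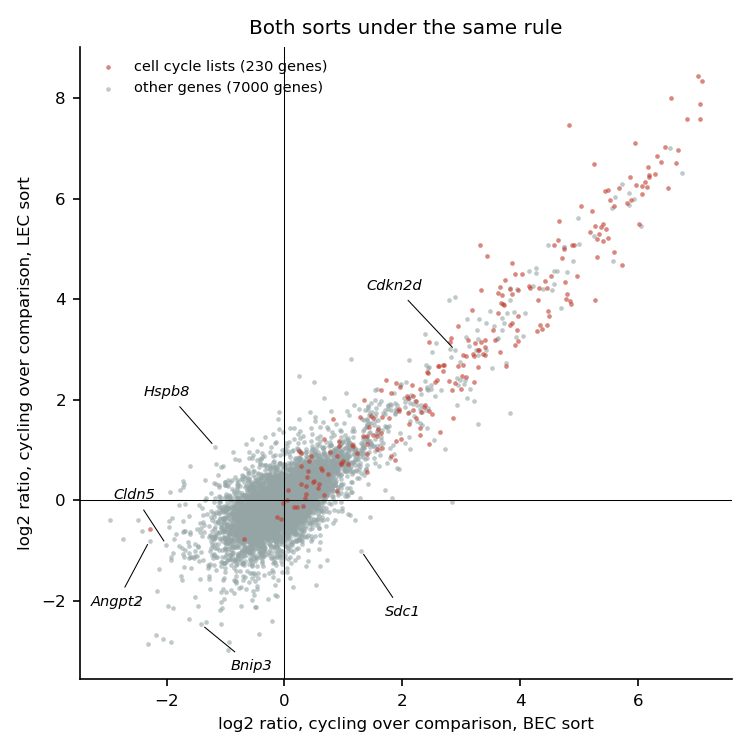
Log2 ratio of cycling over comparison cells in the BEC sort (x axis) and the LEC sort (y axis) for 7230 genes, with 230 genes of the cell cycle lists in red. Genes far to the upper right are shared, among them the genes of the rule by selection. The lower left is diffuse, and Hspb8 and Sdc1 lie in opposite quadrants.

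Among regulators of the cell cycle, the INK4 genes and Mxd4 had ratios of the same direction in the LEC sort and Cdkn1a did not. Cdkn2d was at 300.1 CPM in cycling and 37.1 CPM in comparison cells of the LEC sort, 8.08-fold higher (7.44 to 8.77), and Cdkn2c was 6.34-fold higher (5.80 to 6.93). Mxd4 was 2.09-fold lower (1.81 to 2.43). Cdkn1a was at 271 CPM in cycling and 298 CPM in comparison cells of the LEC sort, 1.10-fold lower (1.02 to 1.18), against 315 CPM in cycling cells and 208 CPM in comparison cells of the BEC sort. Fos was 1.79-fold lower (1.75 to 1.83). For endothelial and tip genes the values of the LEC sort are given beside those above, and the difference between the sorts was not tested. Angpt2 was at 205 CPM in cycling and 360.2 CPM in comparison cells of the LEC sort, 1.76-fold lower (1.62 to 1.90), and Cldn5 at 1238 CPM in cycling and 2285 CPM in comparison cells of the LEC sort, 1.85-fold lower (1.79 to 1.91). Esm1 was at 22.8 CPM in cycling and 59.1 CPM in comparison cells of the LEC sort, 2.59-fold lower (2.04 to 3.34), and Pgf 3.52-fold lower (3.13 to 3.98). Kcnj8 was at 14.2 CPM in cycling and 19.0 CPM in comparison cells of the LEC sort, with an interval that includes no difference. Igfbp3 was at 397 CPM in cycling and 317 CPM in comparison cells of the LEC sort, and Aqp1 at 284 CPM in cycling and 271 CPM in comparison cells of the LEC sort. Of the hypoxia list, Bnip3 was at 18.8 CPM in cycling and 109 CPM in comparison cells of the LEC sort, 5.80-fold lower (4.47 to 7.67), and Adm 5.25-fold lower (4.55 to 6.09). Vcam1, an adhesion molecule for leukocytes, was at 6.61 CPM in cycling and 53 CPM in comparison cells of the LEC sort.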

How the data were processed

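The authors deposited 1 matrix of UMI counts, not normalized, with genes in rows and cells in columns. The submitters' processing notes name Cell Ranger 2.1.1 and the build mm10. How the authors filtered cells was not stated in these sources. Libraries came from 10x Chromium 3′ v2 chemistry, per the labels' protocols. Strand use in counting was not stated, so overlapping genes are uncertain. All cell columns were mapped to a sort (0 left out), and 4 libraries could not be separated. The members, gene lists and rules were chosen with earlier results of these data known.

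UMIs were summed per group and scaled to CPM. Log2 ratios (cycling over comparison) used a pseudocount of 1 CPM, and genes under 10 CPM in both groups were not measured. CPM have exact Poisson intervals, ratios exact conditional binomial intervals and shares Clopper-Pearson intervals. No test was possible with 1 sample. Of 3228 BEC cells, 58 were left out by the filter (22 pigmented, 36 stromal). No doublet caller was run. Named genes were the genes of the rule; the 15 highest and 15 lowest ratios of genes that reached 50 CPM and 10% of cells in the higher group and were at least 1.5-fold apart, ranked by the smaller log2 ratio of all and of thinned UMIs; the 4 members of each list with the highest level; and further list members with a stated role. Shares of cells used cells thinned to 5000 UMIs. Scripts were tested on simulated data. Gene positions are from GENCODE M21 (GRCm38) and promoters from RefSeq (GRCm38.p6). Python 3.11.15, numpy 2.4.6, scipy 1.17.1, pandas 2.3.3 and matplotlib 3.10.9 were used. Depth and composition alternatives are given in the closing section.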

Additional observations from a re-analysis of the deposited data

Results flagged for a closer look

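Hspb8, a small heat shock protein (chr5:116408491-116422864, minus strand, GRCm38), was lower in cycling cells of the BEC sort, with a log2 ratio of -1.18 (8.95 CPM in cycling and 21.6 CPM in comparison cells). It was higher in cycling cells of the LEC sort, with a log2 ratio of 1.06 (40.0 CPM in cycling and 18.6 CPM in comparison cells). Sdc1, the proteoglycan syndecan-1 (chr12:8771323-8793715, plus strand), ran the other way. Its log2 ratio was 1.30 in the BEC sort (15.8 CPM in cycling and 5.82 CPM in comparison cells) and -1.01 in the LEC sort (52.9 CPM in cycling and 107 CPM in comparison cells). These were the 2 genes at least 2-fold apart in opposite directions, and the difference between the sorts was not tested.

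Outside the cells analysed, 3 of the 22 pigmented cells left out of the BEC sort also reached the threshold of 15 per 10000.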

How the results depend on the processing

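No paired analysis was possible because the cell columns carry no library number, and for the same reason no library could be left out. Across 18 alternatives, 527 of 594 list medians stayed within the spread of the main value, and of the values of 212 named genes 3161 stayed and 663 moved, while 2 at least 2-fold apart changed sign (95 values of 40 genes did so at any size). Values below are log2 medians of lists, with the cause of each move not tested. With a threshold of 10 per 10000 the share of members was 7.32%, chromosome structure was at 2.68, tubulin 1.73, mitotic transcription factors 0.89 and interferon -0.45, and Reln, which has 0 UMIs in cycling cells of the main selection, changed sign to 0.43. At 20, chromosome structure was 2.94 and the factors 1.32. At 30, the share was 3.88%, chromosome structure 3.12, tubulin 2.04 and ribosome biogenesis 0.33. Against all other cells, the genes of the rule were at 5.22, G2 and mitosis 4.62, kinetochore 3.44, chromosome structure 2.65, tubulin 1.76, licensing 2.0, fork 2.13 and nucleotides 1.25. Against cells under 1 per 10000, the rule was at 7.4 and hypoxia at -0.94. In cells thinned to 5000 UMIs, 550 genes were lower (309 in the main setting), tip genes were at -0.73, Npr3 genes -1.26 and venous genes -0.71. Against depth-matched cells, quiescence changed sign to 0.017, venous genes to 0.31, adhesion to 0.034 and Dcn, with 1 UMI in cycling cells, to 0.23. There, chromosome structure was 3.09, tubulin 1.62, nucleotides 1.23, pan-endothelial -0.15, blood endothelial -0.59, tip -1.07, Aplnr -0.16, arterial -0.71, basement membrane -0.42 and immediate-early -0.54. With means of per-cell CPM, chromosome structure was 2.74, tip -0.71 and interferon -0.48. A pseudocount of 0.1 gave 7.24 for the rule, 6.03 for G2 and mitosis, 4.76 for kinetochore and 4.20 for repair. A pseudocount of 10 left 97 lower genes, with the rule at 4.83, G2 and mitosis 3.08, kinetochore 2.23, chromosome structure 2.09, tubulin 1.73, licensing 1.70, fork 1.80, repair 1.19, nucleotides 1.14, histones 1.6, G1 and S regulators 0.69, mitotic factors 0.90 and mural -1.41. A minimum of 50 CPM left 276 higher and 94 lower genes, histones (1 gene) changed sign to -0.68, and chromosome structure was 2.70, nucleotides 2.45, G1 and S regulators 0.41, tip -0.71, venous -0.76, interferon -0.48 and mural -2.44. With no minimum, 723 genes were lower, with histones at 1.80, G1 and S regulators 0.52, ribosome biogenesis 0.40 and mural -0.68. A 1.5-fold call gave 1089 higher and 1061 lower genes. Cells with 2 UMIs of the Npr3 list were 45.5% of cycling and 67.8% of comparison cells at 2000 UMIs, and 96.8% and 96.2% unthinned. Calls were 68.2% higher with median-of-ratios scaling and 71.1% with totals without cell cycle genes, against 64.9%.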
